A study of Mus musculus with 30 samples.

Results

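The regions called for 5-formylcytosine (5fC) were compared with those called for 5-hydroxymethylcytosine (5hmC) within Tdg fl/fl embryonic stem (ES) cells of the mouse, whose Tdg alleles are floxed. All regions of both lists on chromosomes 1 to 19 and X were taken, and a 5hmC region was said to hold 5fC if 1 bp or more of it was shared with a 5fC region. This gave 57016 5fC regions and 140943 5hmC regions, 197959 of the 651145 regions in the 7 lists read, from 4 of the series' 30 libraries. The cells, of strain C57BL/6-ICR, grew without feeders on gelatin in medium with LIF, CHIR99021 and PD0325901, agents that hold ES cells in an undifferentiated state. For reference, 5fC and 5hmC lists of Tdg -/- ES cells, in which Tdg is deleted, and of embryoid bodies (EB), fl/fl cells left to differentiate for 5 days without those agents, were read as well. A list of p300 chromatin immunoprecipitation from fl/fl ES cells was the seventh. The Tdg -/- lists held 120051 5fC and 174655 5hmC regions, the EB lists 24727 and 101593, and the p300 list 32160. A share found in another list depends on the size of that list. Each list is 1 pooled call over 2 libraries, or 3 for p300, so the spread between replicates is unknown and no test between samples was possible. The labels do not say whether the libraries came from separate cultures.

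TET enzymes oxidise 5-methylcytosine stepwise to 5hmC, 5fC and 5-carboxylcytosine, and thymine DNA glycosylase (TDG) cuts out the last pair, after which base excision repair restores an unmodified cytosine. 5hmC is thus the direct precursor of 5fC, and in ES cells it is common at enhancers and in gene bodies. p300, a histone acetyltransferase, marks many enhancers.

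The expression table of fl/fl ES cells, 1 pooled value per gene in FPKM (fragments scaled to transcript length and library size), had the markers of the labelled cell type at high levels. Pou5f1, Nanog and Sox2, core pluripotency factors, stood at 630.5, 473 and 196 FPKM. All 7 ES cell markers that could be matched were at 70.0 FPKM or more. Of the other lineages' markers, 1 of 5 for endoderm, 0 of 4 for mesoderm, 2 of 4 for neuroectoderm (Nes at 6.09 and Tubb3 at 20.2), 1 of 3 for trophectoderm and 1 of 4 for fibroblasts or feeder cells (Thy1 at 2.36) reached 1 FPKM. Of the enzymes that make 5hmC and 5fC, Tet1 (66.6 FPKM) and Tet2 (46.9) were well above Tet3 (1.18). Tdg itself was present at 22.1 FPKM. Dnmt1, the maintenance DNA methyltransferase, was at 66.8 FPKM, Dnmt3a and Dnmt3b, which set new methylation, at 7.32 and 18.997, and their cofactor Dnmt3l at 99.1.

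5fC lay mostly within 5hmC and took up a small part of it. Of the 140943 5hmC regions, 45934 held 5fC, a share of 32.6% (95% Wilson interval 32.3 to 32.8, counting error only, as for all intervals here). Seen from the other side, 50949 of 57016 5fC regions (89.4%, 89.1 to 89.6) lay on 5hmC. By length, 5fC regions covered 18.7% of the 167 Mb called as 5hmC, while 90.6% of the 34.6 Mb called as 5fC was also called as 5hmC. 5fC regions were the narrower, with a median of 543 bp (quartiles 441 to 698) against 979 bp (769 to 1391) for 5hmC. Across autosomes the share of 5hmC regions with 5fC ran from 28.1% on chromosome 13 to 36.3% on chromosome 4.

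Chromosome X stood apart from the autosomes in both marks. It had 431 5hmC regions, or 2.68 per Mb, where the autosomes had 44.0 to 79.6 per Mb, and 104 5fC regions. Of its 5hmC regions 15.8% held 5fC. Its 5hmC regions also had lower scores, with a median of 77.3 against 109 on the autosomes. The score, deposited with each region, is minus 10 times the log10 of the peak caller's p-value. It grows with sequencing depth and so was used within a list, except in alternatives that applied the same score minimum to different lists. Those alternatives compare scores between lists of unknown depth. Autosomal regions weighted to the score mix of chromosome X held 5fC in 21.8%. Few regions lay on chromosome X in other lists too. It had 490 of 32160 p300 regions, 690 of 174655 Tdg -/- 5hmC regions and 837 of 101593 EB 5hmC regions.

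Both fl/fl ES lists had a break near the upper end of their scores, and held fewer counterparts of the strongest Tdg -/- regions than of those ranked next. Scores in the fl/fl 5fC list ran up to 520.86, were absent from there to 997.58, and resumed with 12 regions up to 1756.43. In the fl/fl 5hmC list 1 region stood at 3110.35 and the next at 1956.37. The EB lists had smaller breaks, from 3044.08 to 2367.57 below the first 5hmC region and from 822.06 to 659.82 below the first 2 5fC regions. Of the 1000 Tdg -/- 5hmC regions ranked 1001 to 2000 by score, 999 overlapped fl/fl 5hmC (99.9%), but 353 of the 400 ranked 101 to 500 did (88.25%, 84.7 to 91.0), and 88 of the top 100. Ranks 100 and 101 both scored 3100, so regions tied at that score were parted between these classes by genome order, not by strength. For 5fC the corresponding shares were 94.0% at ranks 1001 to 2000, 85.0% at ranks 101 to 500 and 73.0% in the top 100. Against the EB lists there was no such drop. In the same order, 94.3%, 97.5% and 97.0% of EB 5hmC regions overlapped fl/fl 5hmC. For EB 5fC regions and fl/fl 5fC it was 51.0%, 65.25% and 71.0%. The cause of these patterns was not tested, and whether regions are missing from the lists as used here is not known. Leaving out all places of the 500 highest-scoring Tdg -/- regions of each mark, an alternative chosen after seeing the data, removed 1486 fl/fl 5fC and 999 fl/fl 5hmC regions and gave 32.3% of 5hmC regions with 5fC and 10.6% of 5fC regions without 5hmC.

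Wide 5hmC regions held 5fC far more often than narrow ones. With the 5hmC regions in 10 classes of equal number by width, called deciles, the share rose at each step, from 12.7% (12.2 to 13.3) among the narrowest, of 256 to 634 bp, through 26.3% in decile 5 (889 to 979 bp), to 69.1% (68.4 to 69.9) among the widest, of 1974 to 15360 bp. The difference between the end deciles was 56.4 percentage points (55.5 to 57.3). At the extremes, 9.57% of the 2843 regions under 500 bp and 395 of the 421 regions of 5000 bp or more (93.8%) held 5fC. A wider region also offers more bases to overlap, so the same was asked of the central 500 bp of each region. There the share rose from 12.7% to 48.5%, and the part of 5hmC bases covered by 5fC rose from 9.19% to 26.6%.

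**Figure D1:**
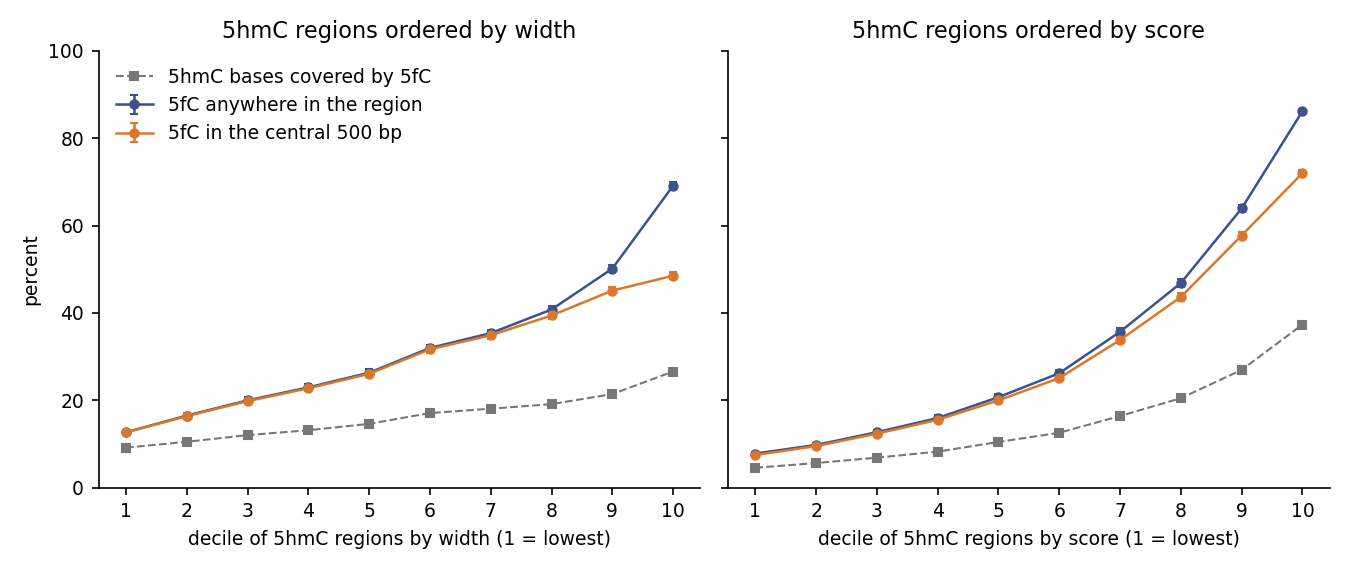
Percent of 5hmC regions with 5fC anywhere (blue) or in their central 500 bp (orange), and percent of 5hmC bases covered by 5fC (grey squares), for deciles of the 140943 regions by width (left) and by score (right). Bars are 95% Wilson intervals, and the blue line rises from 12.7% to 69.1% by width and from 7.83% to 86.2% by score.

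The score of the 5hmC region set the share apart still more, and width added little at a given score. In deciles by 5hmC score the share with 5fC was 7.83% (7.40 to 8.29), 9.81%, 12.7%, 15.97%, 20.7%, 26.2%, 35.7%, 46.8%, 63.9% and 86.2% (85.6 to 86.7). The highest decile alone held 12142 of the 45934 5hmC regions with 5fC. Width and score went together over the 140943 regions, with a Spearman coefficient of 0.67, and both are read from the same libraries. With the regions cut into quintiles, 5 classes of equal number, by score and by width at once, the 5 width quintiles of a single score quintile differed by 6.37 points in the lowest score quintile and by 2.35 to 4.96 points in the other 4. In contrast, the 5 score quintiles of a single width quintile spanned 61.8 to 65.8 points.

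The corners of that grid show this. Among the narrowest regions, those of the highest score quintile held 5fC in 73.1% (68.1 to 77.6) of 331 regions. Among the widest regions of the lowest score quintile, 13.6% (10.8 to 17.1) of 462 did. Comparing the widest with the narrowest decile within score deciles, a comparison chosen after seeing the data, left a difference of -0.518 percentage points in place of 56.4. This value has no interval and is weighted by the number of widest regions. In the highest score quintile the narrowest quintile had 331 regions and the widest 17208. From the lowest to the highest score quintile, widest less narrowest quintile was 6.37, 1.63, -0.158, -2.27 and 3.71 points. The sign of what remains is thus not settled.

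**Figure D2:**
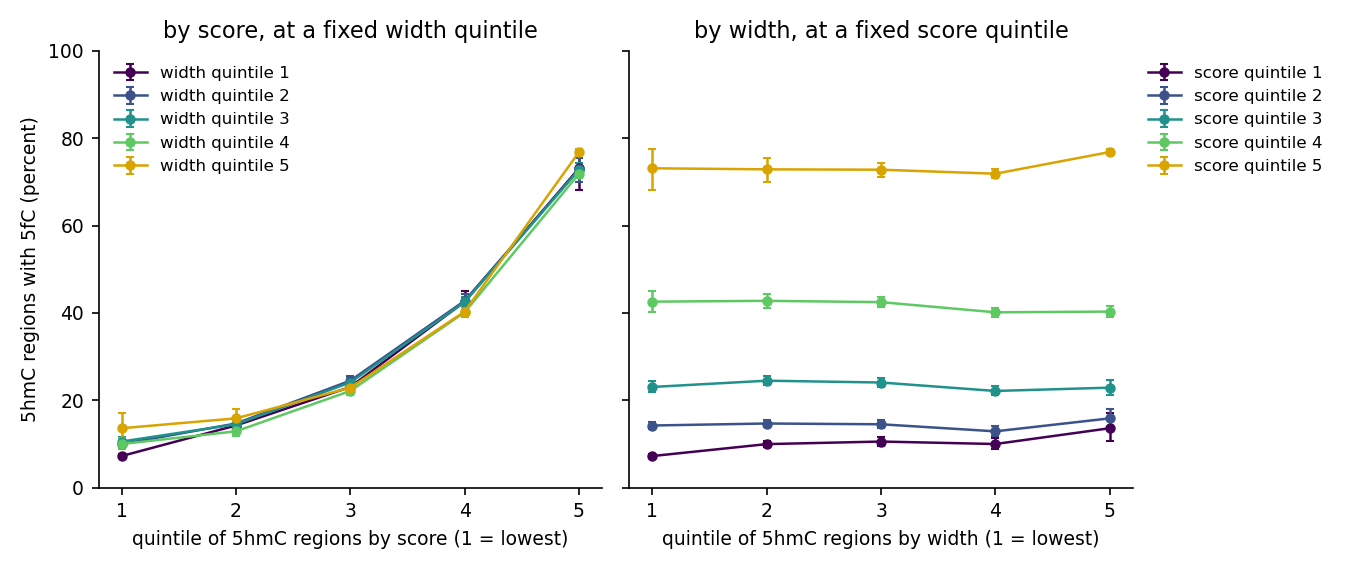
Percent of 5hmC regions with 5fC for each combination of 5hmC score quintile and width quintile, plotted against score (left, 1 line per width quintile) and against width (right, 1 line per score quintile), with 95% Wilson intervals. Score moves the share by 61.8 to 65.8 points at a given width (left), and width by 2.35 to 6.37 points at a given score (right).

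5hmC regions in dense surroundings held 5fC more often than isolated ones, also at a given width or score. Within 50 kb of a 5hmC centre lay a median of 15 other 5hmC centres (quartiles 9 to 21). The share with 5fC was 14.9% (13.5 to 16.5) for the 2275 regions with no other centre within 50 kb, 17.6% with 1, 19.3% with 2 to 3, 23.8% with 4 to 7, 30.3% with 8 to 15 and 39.0% with 16 or more. Regions with 8 or more exceeded those with none by 20.5 percentage points (18.9 to 21.9). Weighted within width deciles the difference was 9.52 points, and within score deciles 8.81 points. In percentage points it was larger among regions of high score. Between 16 or more and 0 to 3 neighbours it was 5.11 points (4.14 to 6.03) in the lowest score quintile, 4.62, 6.82 and 11.4 in the next 3, and 16.3 (13.3 to 19.5) in the highest. The shares were 10.5% against 5.41% in the lowest quintile and 77.7% against 61.4% in the highest. Relative to the sparse share, the difference was thus larger in the lowest. The highest quintile spans scores of 230.13 to 3110.35, so score can still differ within it.

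**Figure D3:**
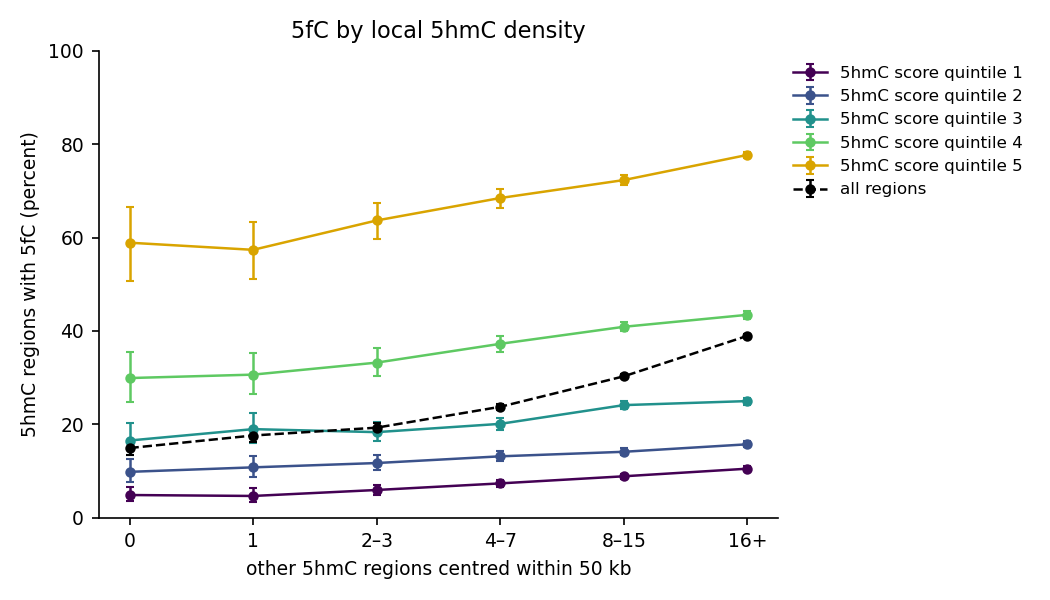
Percent of 5hmC regions with 5fC by the number of other 5hmC regions centred within 50 kb, for all regions (dashed) and within each quintile of 5hmC score (colours), with 95% Wilson intervals. From 2 to 3 neighbours upward every line rises, and the highest score quintile goes from 58.9% with 0 neighbours to 77.7% with 16 or more.

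The gap to the nearest 5hmC region gave the same order. The share was 38.0% for the 59769 regions with a neighbour under 1 kb away, 33.1% at 1 to 2 kb, 30.1% at 2 to 5 kb, 26.7% at 5 to 10 kb, 22.3% at 10 to 20 kb, 19.4% at 20 to 50 kb and 15.0% beyond. Taking regions with gaps under 5 kb as a run, 23.5% of single regions held 5fC, and 42.3% of those in runs of 10 or more. The longest run had 80 regions. Of the 1970 runs of 10 or more, 0.406% had no 5fC at all, and 0% had it in every member. At a share of 42.3% runs this long would seldom have either, and no expected value was computed. In windows of 1 Mb with at least 20 5hmC regions, 1494 of 2241, the median share rose from 20.7% in the quintile of windows with 20 to 38 regions to 38.6% in the quintile with 139 to 294. Over these windows the Spearman coefficient between region number and share was 0.62, and windows share libraries and neighbouring ones share their surroundings.

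Neighbouring 5hmC regions tended to share their state, by a small margin. Where the nearest 5hmC neighbour held 5fC, 36.9% (36.4 to 37.3) of regions did, and where it did not, 30.5% (30.2 to 30.8). The difference of 6.401 points (5.87 to 6.93) had this sign on 20 of 20 chromosomes. A single 5fC region bridged 2 neighbouring 5hmC regions in 251 cases, and leaving these pairs out gave 5.75 points. Within width deciles the difference was 3.50 points and within score deciles 2.80. By distance it was 5.93 points for neighbours under 1 kb away (4.69 without joined pairs), 5.26 at 1 to 2 kb, 3.79 at 2 to 5 kb, 5.34 at 5 to 10 kb, 2.99 at 10 to 20 kb and 4.17 at 20 to 50 kb. Beyond 50 kb it was -3.44 points, with an interval of -6.84 to 0.591 that includes 0.

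Most marked 5hmC regions carried a single 5fC region. Exactly 1 was found in 41375, or 90.1% of those with any, 2 in 3977, 3 in 485, 4 in 75, 5 in 17, 6 in 4 and 7 in 1. Their median widths rose in that order from 1185 bp with 1 to 2352 with 2, 3691 with 3 and 5097 with 4, against 898 bp for regions without 5fC. In the widest decile 23.1% of regions held 2 or more. Neighbouring 5fC regions within the same 5hmC region had centres a median of 975 bp apart and a median gap of 275 bp between their edges, over 5266 pairs.

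The 5hmC region with the most 5fC lay at 125416858 to 125424997 on chromosome 6 (all positions as deposited, build mm9). It was 8139 bp wide, scored 679.95, had 23 other 5hmC regions within 50 kb, and its 7 5fC regions of 506 to 994 bp covered 58.3% of it. Of the 4 regions with 6, the widest 2 lay at 140261102 to 140270908 on chromosome 4 (55.1% covered) and at 103827624 to 103836772 on chromosome 12 (45.6% covered). All 3 named regions also overlapped 5fC and 5hmC of Tdg -/- cells, and none a p300 region. Among all 5hmC regions with 5fC in the widest decile, 98.7% overlapped Tdg -/- 5fC, 99.9% Tdg -/- 5hmC and 18.3% p300. The widest 5hmC region without 5fC, at 90167715 to 90175448 on chromosome 1, was 7733 bp wide and scored 56.89. The next were 7121 bp at 155542312 to 155549433 on chromosome 4, scoring 351.91, and 6814 bp at 31026503 to 31033317 on chromosome 6, scoring 695.99. Each of these 3 overlapped 5fC in the Tdg -/- list, as did 83.3% of all regions without 5fC in the widest decile. The widest of the 3 has a score in the lowest decile. No genome or annotation of mm9 was used here, so genes and sequence at these places are not given.

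Where 5fC met 5hmC it was usually enclosed by it. Of 51200 overlapping pairs, 45890 (89.6%, 89.4 to 89.9) had the 5fC region wholly inside, 4.98% crossed the left edge, 5.23% the right edge, and 0.158% had a 5fC region that held the whole 5hmC region. Enclosed 5fC regions took a median of 42.2% of the 5hmC width (quartiles 28.8 to 56.4). This part fell from 67.9% in the narrowest width decile to 24.1% in the widest, while the median 5fC width rose from 383 to 666 bp.

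Taken over all enclosed pairs, whether 5fC sat in the middle more often than even placement gives depended on how regions and position were defined. The offset of the 5fC start from the 5hmC start was divided by the free length, the 5hmC width less the 5fC width, so that 0 and 1 are the ends. The middle 20% of this scale held 22.5% (22.1 to 22.9) of the 5fC regions and the outermost 10% at both ends together 15.3% (15.0 to 15.6). Even placement of a single 5fC region gives 20% in each case. That even share does not hold for the 9025 enclosed 5fC regions in 5hmC regions with 2 or more, because 5fC regions do not overlap each other. With 5hmC regions closer than 1 kb merged, the middle 20% held 18.9%, below the even share. Measured as the distance between centres over the distance from the 5hmC centre to its edge, 44.3% lay in the central 20%, a scale on which the width of the 5fC region itself keeps centres from the ends. On the left of the middle lay 50.6%. By 5fC score the middle 20% varied little, between 21.4% and 23.2% over the 10 score deciles.

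This average joined opposite patterns in narrow and wide 5hmC regions. By 5hmC width decile the middle 20% held 23.1%, 23.3%, 27.3%, 30.6%, 36.2%, 36.0%, 27.9%, 18.1%, 14.5% and 16.5% of 5fC regions. Central placement was thus most frequent at 5hmC widths of 889 to 1104 bp, deciles 5 and 6, and below 20% from 1279 bp upward, with 5hmC regions of 2 or more 5fC regions included. In decile 9 (1527 to 1973 bp), with the scale cut into 10 equal steps, steps 2 and 9 held 13.7% and 13.8% but step 5 held 6.91%. Where 5hmC regions had 1 5fC region each, the pattern was weaker. With only these, the middle 20% held 19.5% (18.4 to 20.6) in width decile 8, an interval that includes the even share. It held 16.2% (15.2 to 17.1) in decile 9 and 18.0% (17.1 to 18.97) in the widest. The outer 10% at both ends held 19.7% in the widest decile with only these, against 23.8% with all. 5hmC regions with 2 or more 5fC regions had 13.2% (12.5 to 13.9), for which 20% is not the even share. Library fragments of 200 to 350 bp limit how finely such positions can be read.

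**Figure D4:**
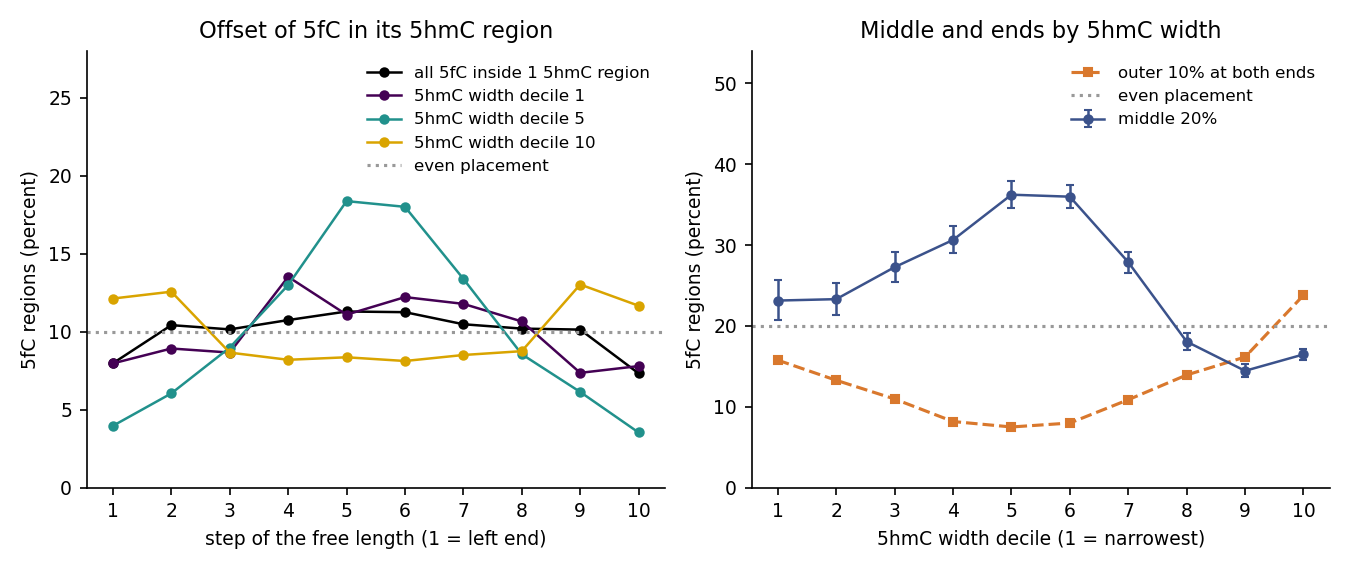
Left, percent of enclosed 5fC regions in each of 10 equal steps of the free length of their 5hmC region, for all 45890 and for 3 width deciles, with a dotted line at the 10% of even placement of a single 5fC region. Right, percent in the middle 20% (blue, 95% Wilson intervals) and in the outer 10% at both ends together (orange) by 5hmC width decile, with a dotted line at the 20% of even placement; the blue line peaks at 36.2% and drops to 14.5%.

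Seen from all 5hmC centres, 5fC covered 24.2% of centres, 8.04% and 7.90% of the positions 500 bp to the left and right, and 4.39% and 4.35% at 1000 bp. It was 4.75% and 4.68% at 10 kb. At the narrowest quintile of 5hmC regions 5fC covered 14.2% of centres and 0.931% and 0.885% of positions 500 bp away, below the 2.97% and 3.16% at 10 kb. These regions are at most 728 bp wide, so positions 500 bp from the centre always lie outside them. Whether 5fC is sparser there than the lack of 5hmC gives was not tested. Seen from 5fC centres, 5hmC covered 88.8% at the centre, 58.3% and 58.8% at 500 bp, 35.5% and 35.4% at 1000 bp and 24.9% and 24.8% at 10 kb. 5fC regions thus had 5hmC around them over a wider stretch than their own width.

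5fC regions without 5hmC numbered 6067 (10.6%, 10.4 to 10.9). They were narrower, with a median of 431 bp against 558 bp on 5hmC, and had lower scores, with a median of 74.2 against 97.1. By 5fC score decile the share without 5hmC fell from 22.6% (21.6 to 23.7) through 19.98%, 16.9%, 13.9%, 10.4%, 8.72%, 6.03% and 3.35% to 2.05% in decile 9, and was 2.42% (2.05 to 2.85) in the highest. By width it fell from 29.7% of the narrowest decile (183 to 370 bp) to 2.78% of the widest (923 to 4515 bp). Across autosomes the share on 5hmC ran from 87.3% on chromosome 14 to 90.5% on chromosome 17, and it was 69.2% on chromosome X.

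Most of these regions had 5hmC nearby. The gap to the nearest 5hmC region had a median of 1962 bp (quartiles 689.5 to 5028), with 1990 (32.8%) under 1 kb, 4541 (74.8%) under 5 kb and 813 (13.4%) beyond 10 kb. At the boundary of the overlap rule, 80 5fC regions overlapped 5hmC by at most 50 bp and 102 missed it by a gap of at most 50 bp, with median scores of 69.9 and 75.2. Farthest out were 87340638 to 87341044 on chromosome 2 (2233206 bp from 5hmC, score 64.54, on p300), 48938270 to 48938513 on chromosome 1 (951185 bp, score 91.11) and 68160075 to 68161024 on chromosome 12 (774259 bp, score 231.41). Of these 3, the one on chromosome 1 overlapped Tdg -/- 5fC and the others did not. Among all 132 beyond 50 kb, 40.9% did.

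5fC regions without 5hmC were found in other lists less often than those on 5hmC. A Tdg -/- 5fC region lay at 54.6% (53.3 to 55.8) of them, against 90.5% of those on 5hmC, and a Tdg -/- 5hmC region at 55.5% against 97.3%. For EB 5hmC the shares were 31.4% and 57.3%, and for EB 5fC 8.83% and 18.9%. Compared within 5fC score deciles, the differences were -30.5 points for Tdg -/- 5fC, -40.5 for Tdg -/- 5hmC, -22.1 for EB 5hmC and -5.99 for EB 5fC. The share with p300 was 7.83% (7.18 to 8.53) without 5hmC and 7.59% on it, a difference of 0.239 points (-0.451 to 0.978), which was 0.996 points within 5fC score deciles and 1.71 within classes of score and width together. Those under 250 bp from 5hmC had p300 in 14.9% and those beyond 50 kb in 3.79%. In none of the 5 other lists were 1477 (24.3%), against 588 (1.15%) of those on 5hmC. Called as 5hmC in none of the 3 5hmC lists were 2185, or 3.83% of all 5fC regions, and 644 of these (29.5%) overlapped Tdg -/- 5fC.

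**Figure D5:**
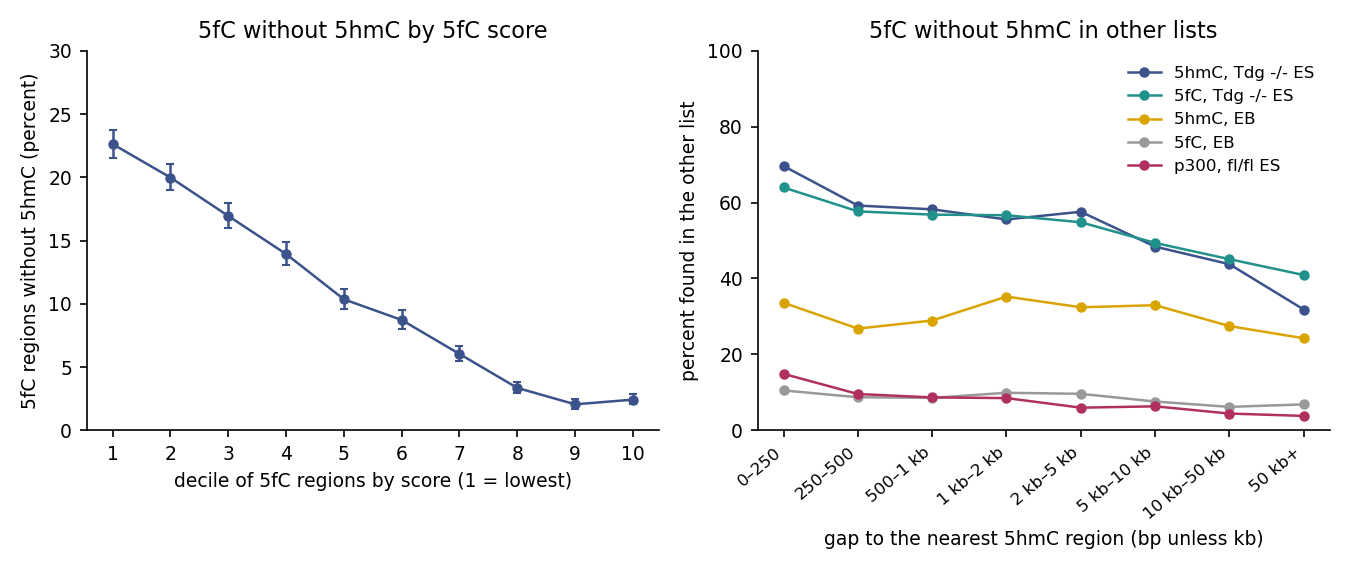
Left, percent of 5fC regions without 5hmC by decile of 5fC score, with 95% Wilson intervals, falling from 22.6% to 2.05% in decile 9. Right, percent of the 6067 5fC regions without 5hmC that overlap each of 5 other lists, by gap to the nearest fl/fl 5hmC region; Tdg -/- 5hmC goes from 69.6% under 250 bp to 31.8% beyond 50 kb.

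The very highest 5fC scores broke this order, at the end of the range where whether the fl/fl lists are complete is not known. The top 3 regions all lacked 5hmC in the fl/fl list, as did 6 of the top 10 and 11 of the top 100, but 33 of the top 500 (6.60%). The highest score, 1756.43, belonged to 168579638 to 168582466 on chromosome 2, which lay 2054 bp from 5hmC. Chromosome 5 had the next at 109979145 to 109982354, scoring 1656.71 and 831 bp from 5hmC. It was followed by 88988128 to 88992158 on chromosome 15, scoring 1639.1 and 2223 bp from 5hmC. All 11 overlapped 5hmC and 5fC of Tdg -/- cells, as did all of the top 100. EB 5hmC was overlapped by 5 of the 11 and by 67 of the top 100. The Tdg -/- 5hmC regions at 9 of the 11 scored 3100 or more, a level reached by 334 of 174655 regions there. The other 2 scored 1455.43 and 2885.2. On 5hmC the highest 5fC score was 1268.02, at 52631873 to 52632953 on chromosome 7, within a 5hmC region scoring 1667.56. Chromosome 4 had the next pair, at 151868081 to 151871171 with 1134.06 and at 131455798 to 131457514 with 1049.71, within 5hmC regions scoring 1922.03 and 1822.1.

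5hmC regions with 5fC met p300 more often than those without. A p300 region lay at 8.12% of all 5hmC regions, at 10.996% (10.7 to 11.3) of those with 5fC and at 6.74% (6.58 to 6.90) of those without. The difference of 4.26 points (3.93 to 4.59) was positive on 19 of 20 chromosomes, X being the exception. Within width deciles it was 1.91 points and within 5hmC score deciles 2.02, positive in each of the 10 deciles of both. In the central 500 bp the shares were 6.91% and 4.61%. Of the 5051 5hmC regions with both, 74.5% (73.2 to 75.6) had p300 touching 5fC itself, and in the others the gap had a median of 259 bp. Median widths were 833 bp for p300 regions, 558 bp for 5fC regions on 5hmC and 1263 bp for 5hmC regions with 5fC. At such widths many would touch wherever they lay, and the share expected from width alone was not computed.

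In EB, 5hmC was called again more often at ES 5hmC regions that had held 5fC. An EB 5hmC region lay at 47.6% of all ES 5hmC regions, at 60.1% (59.6 to 60.5) of those with 5fC and at 41.5% (41.2 to 41.8) of those without. The difference of 18.6 points (18.0 to 19.1) was positive on 20 of 20 chromosomes. It was 16.5 points within width deciles and 7.45 within score deciles, between 5.92 and 13.9 in single score deciles. EB 5fC lay at 21.8% and 7.80%, a difference of 14.0 points and 7.02 within score deciles.

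Many fl/fl 5hmC regions without 5fC had a 5fC call in Tdg -/- ES cells, whose 5fC list was the larger. It had 120051 regions over 111 Mb, against 57016 over 34.6 Mb for fl/fl 5fC. A Tdg -/- 5fC region lay at 61.7% of all fl/fl 5hmC regions, at 91.3% of those with fl/fl 5fC and at 47.3% (47.0 to 47.6) of the 95009 without. Among the latter the share rose with 5hmC score, from 24.6% (23.9 to 25.4) in the lowest decile to 94.3% (93.1 to 95.2) of the 1952 in the highest, and with width, from 25.0% to 83.3%. On chromosome 11 it was 77.4%, outside the 40.9 to 48.7% of the other 18 autosomes, and without chromosome 11 the share was 45.8%. The fl/fl 5hmC regions of chromosome 11 were also wider, with a median of 1244 bp against 915 to 1022 bp on the other autosomes. Whether width goes with its higher share was not tested. With Tdg -/- 5fC regions under the score minimum of the fl/fl list removed, the share over all chromosomes used was 41.2%. 5hmC itself was called in Tdg -/- cells at 97.3% of the regions with 5fC and 82.5% of those without, a difference of 14.8 points that was 2.85 within score deciles.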

How the data were processed

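5fC and 5hmC regions were read from lists deposited by the authors, 1 per mark and group, which per the labels pool the group's replicates. The submitters' processing notes name Bowtie, MACS 1.4 and build mm9, and TopHat 1.4.1 and Cufflinks 1.3.0. No source used here gives the threshold or the control of the calls. The score deposited by the authors is, where a header names it, minus 10 log10 of a p-value, and lists without headers were read likewise. The lowest score was 60.92 for fl/fl 5fC and 50 in the other 6 lists. The FPKM table, deposited by the authors, has 1 value per gene. Read depth is unknown. Chromosomes 1 to 19 and X were kept, which left out 2 5fC regions on Y. Positions were taken as half-open. Reading starts as counted from 1 changed 5 5hmC and 3 5fC calls. Shares carry Wilson 95% intervals and differences Newcombe intervals, with Python 3.11.15, numpy 2.4.6, pandas 2.3.3 and scipy 1.17.1. Differences within deciles are averaged with the number in the first-named class as weight. The scripts were checked on simulated data. Named regions follow a rule: the 3 with most 5fC (ties by width), widest without 5fC, highest-scoring on and without 5hmC, and farthest from 5hmC. Markers and enzymes were listed, and Tfcp2l1 and Uhrf1 were not matched. Members and lists were chosen with earlier results of these data known. Control enrichments, input and H3K4me1 libraries were not analysed here.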

Additional observations from a re-analysis of the deposited data

How the results depend on the processing

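Over 9 results and 64 alternatives, 54 listed at the start and 10 chosen after seeing the data, 23 values moved by less than their interval, 40 by more, and 1 changed sign. For the share of 5hmC regions with 5fC (32.6%), the higher-scoring 5fC regions gave 18.1%, the higher-scoring 5hmC regions 51.8%, 1 score minimum in both lists 36.7%, merging 5hmC within 1 kb 36.7%, and leaving out the places of the 500 strongest Tdg -/- regions of each mark 32.3%. In the same order the width difference (56.4 points) was 44.9, 38.6, 52.9, 70.9 and 55.0; it was 35.8 in the central 500 bp, 17.4 as bases covered and -0.518 within 5hmC score deciles. The density difference (20.5) was 13.8 with higher-scoring 5fC, 26.6 merged, 18.8 at 10 kb, 17.4 in the central 500 bp, 9.52 within width deciles and 8.81 within score deciles. The neighbour difference (6.401) was 5.75 without joined pairs, 3.50 within width deciles and 2.80 within score deciles. The middle 20% (22.5%) held 21.5% with higher-scoring 5hmC, 18.9%, below the even share of a single 5fC region, with 5hmC merged, 44.3% by distance between centres, a scale on which the 5fC width keeps centres from the ends, and 24.8% with exactly 1 5fC region. The share of 5fC without 5hmC (10.6%) was 11.2% by 5fC centre and 11.2% with at least 50% of the narrower region shared, 4.51% and 27.1% with the higher-scoring 5fC or 5hmC, 13.5% at 1 score minimum, 8.53% with 5hmC widened by 500 bp and 3.83% with 3 5hmC lists. The p300 difference (4.26) was 1.91 within width deciles, 2.02 within score deciles and 3.26 at higher-scoring 5hmC, and the EB difference (18.6) 16.5, 7.45 and 10.6. Tdg -/- 5fC at 5hmC without 5fC (47.3%) was 41.2% at the fl/fl score minimum and 45.8% without chromosome 11. Why the values moved was not tested beyond what each alternative changes. No paired analysis was possible because each list pools its replicates, and for the same reason none could be left out. Depth is unknown, so a region without a call may lie under the threshold of its list.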
